A study of Mus musculus with 54 samples.

Results

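The brain transcriptome of APPSWE mice and of their control littermates was examined for genes on which the HDAC1/2 inhibitor Cmpd60 acted differently in the 2 genotypes. For each gene, the interaction was the log2 effect of Cmpd60 against vehicle in APPSWE mice minus the same effect in littermates, so that a value below 0 means a lower effect in APPSWE mice. All 20 brain libraries of the cohort aged 6 to 7 months entered, out of the 54 libraries of the series, in 4 groups of 5 male mice each. Of the 54232 genes in each file, 23273 exceeded 2 counts in 3 or more libraries, and the 10405 of these with a mean of at least 10 CPM, a count scaled to the size of its library, were tested.

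APPSWE-1349 mice, on a BL6 background, carry a transgene for the 695-residue isoform of the human amyloid precursor protein with the Swedish mutation, and the littermates (AD-control in the labels) served as their controls. The promoter that drives the transgene was not given in the sources used here. Mice of each genotype were injected intraperitoneally every day for 14 days with 22.5 mg/kg Cmpd60 or with vehicle, a mixture of DMSO, PEG400 and saline that both arms received. All 4 groups ate chow, were housed singly and were fasted overnight before brain tissue was taken. Each library was counted as 1 mouse, and the labels give no litter or batch.

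HDAC1 and HDAC2 are histone deacetylases that act as catalytic subunits of corepressor complexes such as NuRD, Sin3 and CoREST. They remove acetyl groups from histone tails, and their inhibition is known to raise histone acetylation and to alter transcription in neurons. The amyloid precursor protein is cut by secretases into amyloid-beta peptides, and the Swedish mutation favours the first of these cuts. Immediate early genes, which neurons switch on within minutes of activity, are among the best known transcriptional readouts of brain state.

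Library s139 was placed in the APPSWE Cmpd60 group, following the column heading of the study's own count table, whereas its labels call it vehicle. Results are therefore also given with this library as vehicle. Counts on genes ranged from 25052335 to 55871402 per library, and a count of 0 allowed up to 0.121 CPM, in library s155, counting error only. Between 15044 and 24821 genes were detected per library. Libraries s140, s152 and s155 (APPSWE vehicle, littermate Cmpd60 and littermate vehicle) had fewer than 16000 genes detected, and libraries s141 and s146 (APPSWE Cmpd60 and APPSWE vehicle) fewer than 17000. The median correlation of these 5 libraries with the others lay between 0.879 and 0.938, against 0.964 to 0.980 for the other 15. Results were therefore also computed without the 5 libraries, a choice made after the data were seen. Markers of cortical excitatory neurons, striatal neurons, cerebellar neurons, astrocytes and oligodendrocytes were present in all 20 libraries, with summed levels of at least 1904.0, 1790.6, 837.8, 7821.0 and 6323.6 CPM.

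The genotypes themselves could not be told apart by the counts on App, the mouse amyloid precursor gene. App was at 2247 ± 115 CPM (SD, n = 5) in APPSWE vehicle and at 2156 ± 126 CPM (SD, n = 5) in littermate vehicle libraries. With Cmpd60, App was at 2182 ± 143 CPM (SD, n = 5) in APPSWE and at 2127 ± 92.0 CPM (SD, n = 5) in littermate libraries. The 4 groups overlapped throughout, and how reads of the human transgene were counted was not given in the sources used here. The interaction of App was -0.02 on the log2 scale, with a 95% interval from -0.19 to 0.14. Prnp, the prion protein gene, likewise gave overlapping groups and an interaction of -0.03 (95% interval -0.23 to 0.18). The sign of both values changed when single libraries were left out.

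No gene passed an adjusted p of 0.05 for the interaction in edgeR's quasi-likelihood test, the smallest adjusted p being 0.999. At an unadjusted p below 0.01, the threshold of the study, 25 genes (0.24%) were called, 10 higher and 15 lower in APPSWE mice, where 104 of 10405 genes would pass if no gene differed. At an unadjusted p below 0.05, 290 genes (2.79%) were called, against 520. DESeq2 and limma-voom also gave 0 genes after adjustment, with 51 and 41 genes at a p below 0.01 and 337 and 456 genes at a p below 0.05. With quality weights for the libraries, limma-voom gave 1 gene after adjustment. The interaction values centred on 0, with a median of -0.01 and quartiles at -0.16 and 0.14, and their median standard error was 0.24. For 8144 genes (78.3%), the 95% interval lay within a 2-fold difference in either direction, so that for these genes a larger difference between genotypes was outside the interval. On simulated counts, with the mean and spread of each gene, the test recovered 64 of 100 interactions of log2 size 1. It recovered 92 of 100 of log2 size 2, and made 10 false calls, at an adjusted p below 0.05. Each gene was drawn independently, with equal means in all groups but for these changes. No library of low gene detection was simulated, so recovery in these 20 libraries may differ.

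Within each genotype, Cmpd60 against vehicle gave 176 genes (1.69%) at a p below 0.01 in APPSWE mice and 44 (0.423%) in littermates, with 0 genes past an adjusted p of 0.05 by edgeR in either and 805 (7.74%) and 390 (3.75%) genes at a p below 0.05. DESeq2 called 253 and 73 genes at a p below 0.01, and its smallest adjusted p was 0.00728 in APPSWE mice and 0.00931 in littermates. In other edgeR fits genes did pass adjustment, the smallest adjusted p in APPSWE mice being 0.000293 without the 5 libraries and 0.0433 with library s139 as vehicle. In littermates it was 0.0372 when gene detection per library entered the fit. The groups did not overlap in 175 genes (1.68%) of APPSWE mice and in 62 genes (0.596%) of littermates. These counts do not show that the effects differ, which is what the interaction tests. Without the 5 libraries of low gene detection the interaction was called at a p below 0.01 in 54 genes, 7 of them among the 25, and with library s139 as vehicle in 18 genes, 6 of them among the 25. Without all 5 and with library s139 as vehicle, 3 of the 25 were among the 35 called. The adjusted count for the interaction stayed at 0 in each of these fits. The identity of the called genes therefore rested on which libraries entered, and thresholds of p given for single genes below are unadjusted, from edgeR's quasi-likelihood test. Every single-gene interaction had an adjusted p of at least 0.999 there.

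**Figure D1:**
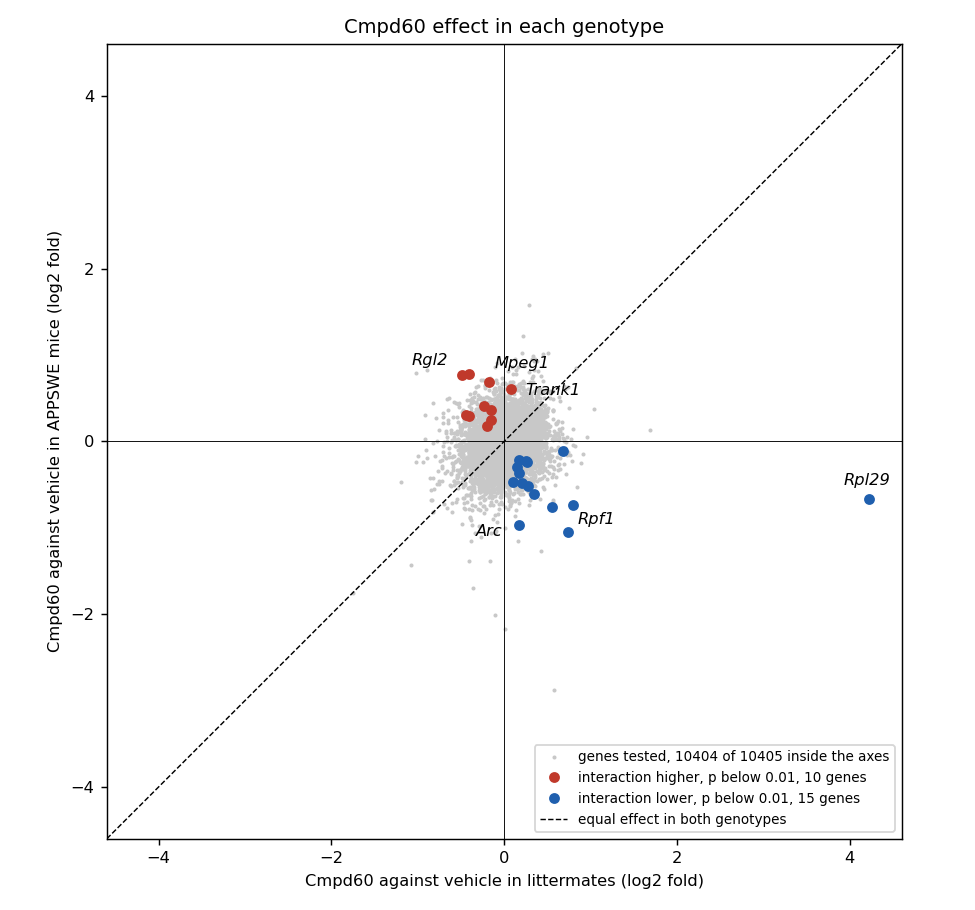
Log2 effect of Cmpd60 against vehicle in littermates (horizontal) and in APPSWE mice (vertical) for the genes tested. Grey points are all genes inside the axes, red and blue points the 10 and 15 genes with an interaction p below 0.01, and the dashed line marks equal effects; Rpl29 lies far to the right at 4.22 in littermates, and Arc lies at -0.97 in APPSWE mice.

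Of the 15 genes called lower, all had a Cmpd60 effect below 0 in APPSWE mice and above 0 in littermates, with medians of -0.48 and 0.26 on the log2 scale. Of the 10 called higher, 9 had an effect above 0 in APPSWE mice and below 0 in littermates, with medians of 0.39 and -0.21. Opposite signs are favoured when genes are picked by the difference between the 2 effects, so these medians describe the genes and do not test them.

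The immediate early gene Arc (ENSMUSG00000022602) gave the smallest p in the called set after Rpl29. Its protein associates with the cytoskeleton at synapses and is needed for lasting synaptic change. Arc was at 124.7, 190.7, 105.9, 148.7 and 129.6 CPM in the 5 APPSWE vehicle libraries, in order of library number, and at 73.0, 78.2, 49.8, 96.2 and 59.4 CPM in the 5 APPSWE Cmpd60 libraries. The littermate vehicle libraries held 60.2, 73.1, 135.2, 73.1 and 65.9 CPM, and the littermate Cmpd60 libraries 76.6, 89.2, 84.0, 122.2 and 86.9 CPM. Every APPSWE Cmpd60 library thus lay below every APPSWE vehicle library, while the littermate groups overlapped. The log2 effect of Cmpd60 was -0.97 (SE 0.20, adjusted p = 0.329) in APPSWE mice and 0.17 (SE 0.20, adjusted p = 0.963) in littermates. The interaction was -1.14 (SE 0.28), with a 95% interval from -1.73 to -0.56. Among vehicle libraries, Arc was 0.78 higher on the log2 scale in APPSWE mice than in littermates (p below 0.01), and among Cmpd60 libraries the difference was -0.36 (p above 0.05). The interaction of Arc was -1.03 (p below 0.01) with library s139 as vehicle and -1.26 (p below 0.01) without the 5 libraries of low gene detection. Leaving out 1 library at a time gave values from -1.40 to -1.01, and Arc kept a p below 0.01 in each of these fits. Without the 5 libraries and with s139 as vehicle, the value was -1.08 with a p below 0.05.

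**Figure D2:**
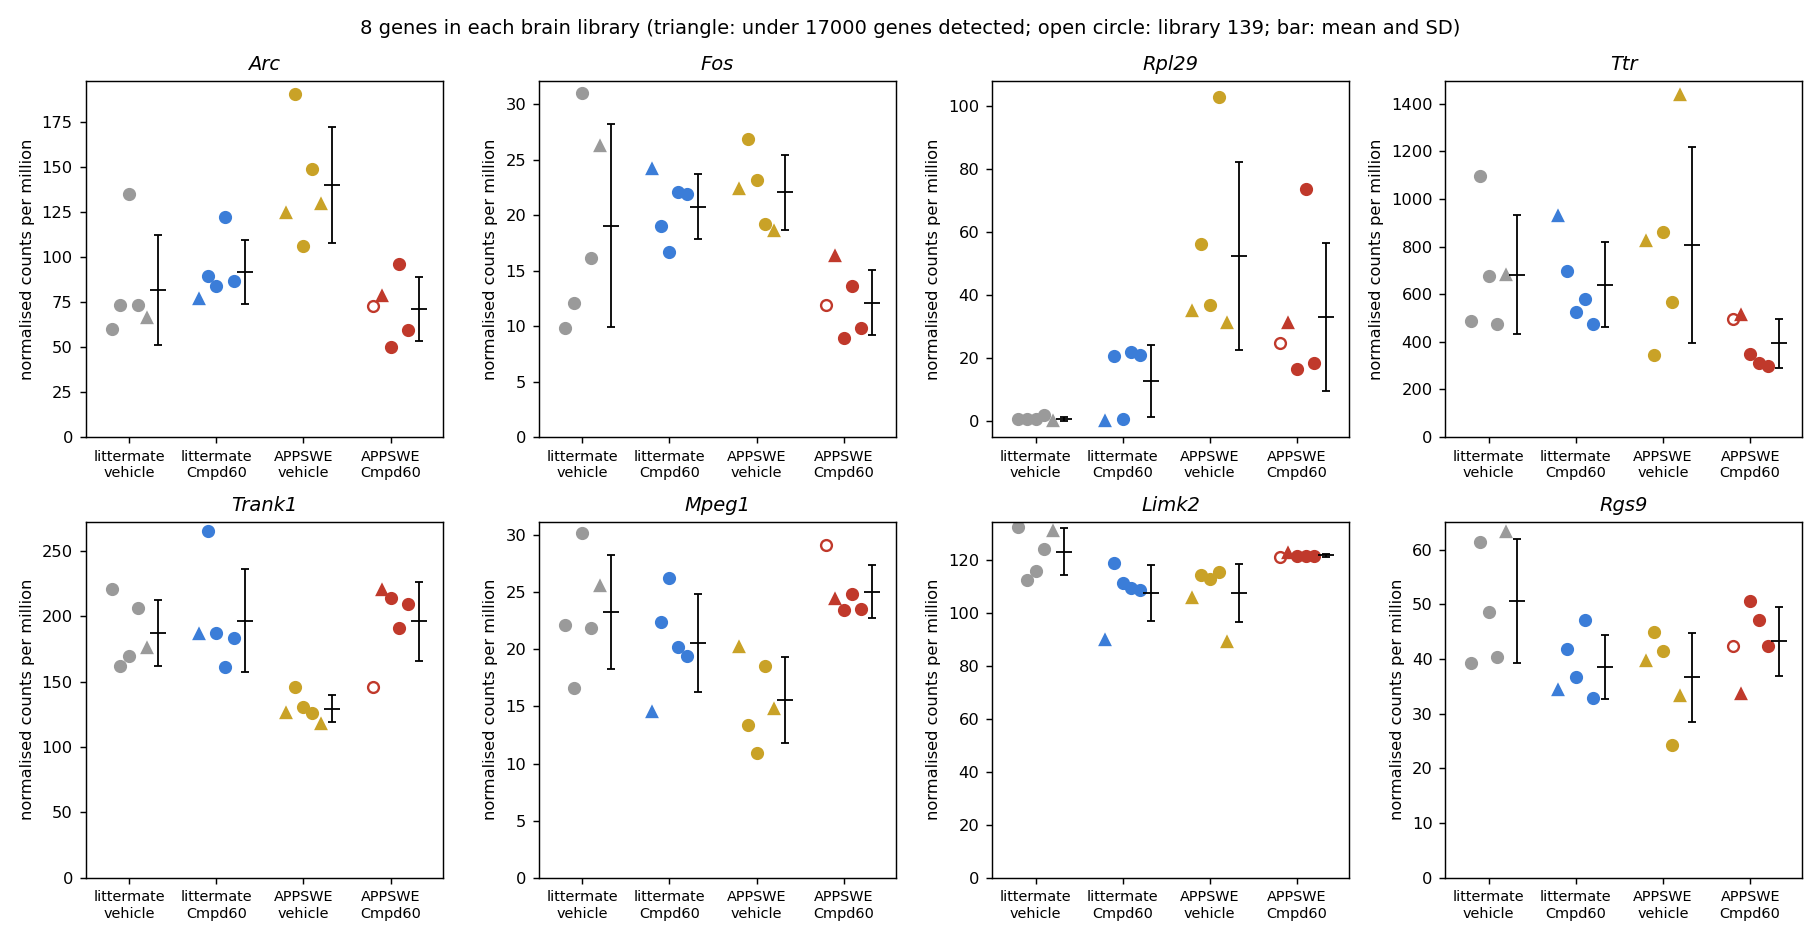
Normalised counts in CPM of Arc, Fos, Rpl29, Ttr, Trank1, Mpeg1, Limk2 and Rgs9 in each of the 20 brain libraries, by group, with the mean and SD of each group beside the points. Triangles are the 5 libraries with fewer than 17000 genes detected, and the open circle is library s139; the APPSWE Cmpd60 libraries lie below the APPSWE vehicle libraries for Arc and Fos and above them for Mpeg1 and Limk2.

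The other immediate early genes were mostly on the same side. Of the 20 listed, 15 were above the CPM minimum, and 13 of these had an interaction below 0 and 2 above it, with a median of -0.36, where 48.2% of all genes tested were above 0 and the median of all genes was -0.01. The median Cmpd60 effect over the 15 genes was -0.27 in APPSWE mice and 0.13 in littermates. Arc was the 1 gene of the list with a p below 0.01 for the interaction, against 0.144% of all genes called lower, and 4 had a p below 0.05, against 1.52% of all genes called lower. These genes were measured in the same libraries and respond to common signals, so they are not independent of each other. Without the 5 libraries of low gene detection, all 15 were below 0 with a median of -0.49 and 7 had a p below 0.05. More of all genes had a p below 0.05 in that fit than in all 20 libraries, so the 1.52% is not its background. The share of all genes in that fit is not given here, so nothing is read from the 7. At a p below 0.01 that fit called 54 genes in all, with Arc, Fos and Egr1 of this list among them. Egr1 was named after its values were seen. With library s139 as vehicle the median was -0.34.

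Fos, a subunit of the AP-1 transcription factor, was at 22.4, 26.9, 23.2, 19.2 and 18.6 CPM in APPSWE vehicle libraries and at 11.9, 16.3, 8.97, 13.6 and 9.87 CPM in APPSWE Cmpd60 libraries. The littermate vehicle libraries held 9.85, 12.1, 31, 16.1 and 26.2 CPM, and the littermate Cmpd60 libraries 24.2, 19.0, 16.7, 22.1 and 21.9 CPM. The APPSWE groups did not overlap for Fos, and the littermate vehicle libraries overlapped all other groups. Its interaction was -0.99 (SE 0.37), and -1.27 (p below 0.01) without the 5 libraries of low gene detection.

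Dusp1, a phosphatase that switches off MAP kinases, was at 26.1 to 32.9 CPM in APPSWE vehicle and at 15.3 to 28.8 CPM in APPSWE Cmpd60 libraries, groups that overlapped. Its interaction was -0.79 (SE 0.30). Nr4a1, an orphan nuclear receptor induced by activity, had an interaction of -0.82 (SE 0.35). Of the 4 genes with a p below 0.05, Dusp1 and Nr4a1 lie outside the rule for named genes and are given to complete the count. Egr3 and Jun were the 2 members above 0, at 0.05 and 0.00. The summed level of all 20 listed genes was 791.4 to 1127.9 CPM in APPSWE vehicle libraries and 642.1 to 792.5 CPM in APPSWE Cmpd60 libraries, and 632.5 to 950.5 CPM and 691.0 to 884.5 CPM in littermate vehicle and Cmpd60 libraries. A single littermate vehicle library, s151, held the highest Arc, Fos, Dusp1 and Nr4a1 values of its group.

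The immediate early genes with a p below 0.05 were looked up in the RefSeq promoter table (build GRCm38.p6), where 3 of 4 were matched. The sequences upstream of their start sites are shown. Each is the run of 250 bases before the annotated start, 5′ to 3′ on the strand of the gene, and capitals mark TGACG or its reverse CGTCA, the short core of the cyclic AMP response element. Fos lies on the plus strand at chr12:85473640-85473889, Dusp1 on the minus strand at chr17:26508473-26508722 and Nr4a1 on the plus strand at chr15:101266596-101266845.
Fos: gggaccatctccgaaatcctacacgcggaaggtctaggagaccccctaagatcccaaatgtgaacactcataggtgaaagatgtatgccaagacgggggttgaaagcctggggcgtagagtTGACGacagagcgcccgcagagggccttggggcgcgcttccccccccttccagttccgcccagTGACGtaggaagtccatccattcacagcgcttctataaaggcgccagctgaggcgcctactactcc
Dusp1: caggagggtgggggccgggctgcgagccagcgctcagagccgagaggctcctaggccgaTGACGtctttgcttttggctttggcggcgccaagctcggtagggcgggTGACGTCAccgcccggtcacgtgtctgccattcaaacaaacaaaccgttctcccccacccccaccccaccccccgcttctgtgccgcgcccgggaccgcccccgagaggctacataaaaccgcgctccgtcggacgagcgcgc
Nr4a1: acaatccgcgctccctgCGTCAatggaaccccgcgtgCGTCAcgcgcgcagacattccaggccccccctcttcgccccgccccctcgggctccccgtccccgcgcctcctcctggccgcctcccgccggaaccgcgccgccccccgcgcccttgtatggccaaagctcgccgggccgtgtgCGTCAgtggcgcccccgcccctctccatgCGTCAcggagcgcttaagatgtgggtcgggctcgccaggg

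Counted on both strands with overlaps kept, TGACG occurred 2 times upstream of Fos, 3 times upstream of Dusp1 and 4 times upstream of Nr4a1. The full palindrome TGACGTCA, which contains 2 overlapping copies of the core, occurred 1 time in Dusp1 and in neither of the others. Of the 15 immediate early genes tested, 12 were matched in the table and 9 of these held TGACG, against 17.8% of all 32851 promoters of that length. The palindrome was found in 2 of the 12 and in 1.5% of all promoters. An early gene was counted once if any of its promoters held the motif, whereas the shares of all promoters count each promoter. The shares therefore differ in unit. A match is a description of the letters and not a measure of binding, and its part in the interaction was not tested.

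**Figure D3:**
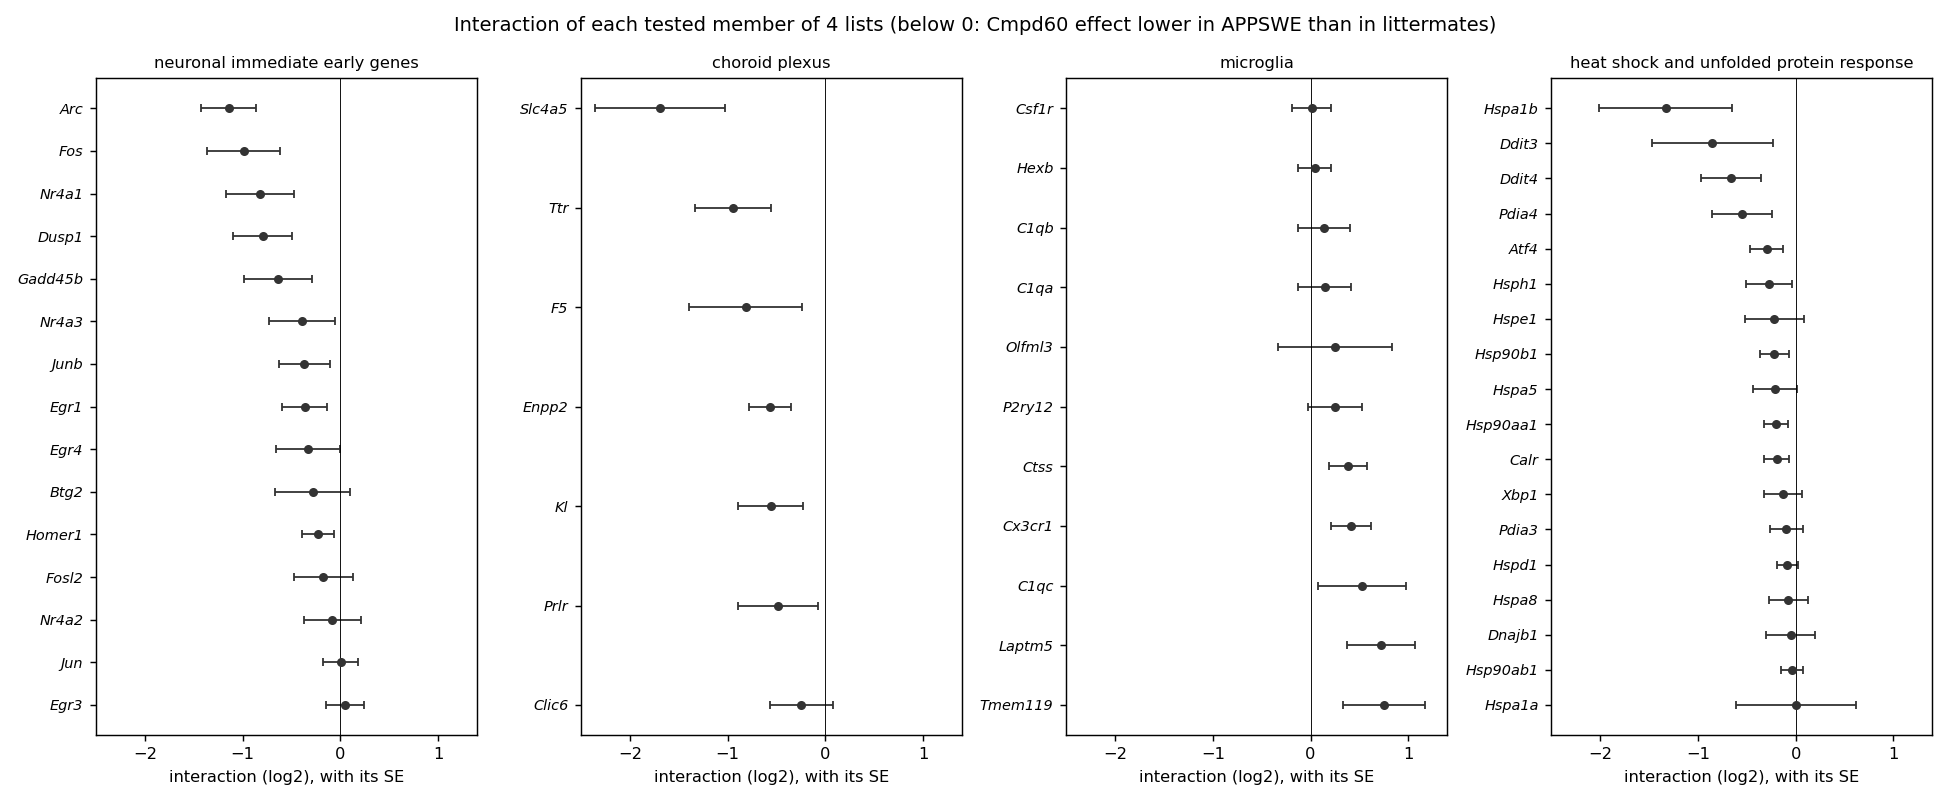
Interaction of each tested member of 4 gene lists on the log2 scale, with its standard error as a horizontal bar. In the immediate early genes 13 of 15 members lie below 0, in the choroid plexus markers 7 of 7, in the heat shock and unfolded protein genes 17 of 18, and in the microglia markers 11 of 11 lie above 0.

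Rpl29 (ENSMUSG00000048758), which codes for a protein of the large ribosomal subunit, had the smallest p and the lowest interaction of the called set. It was at 35.0, 56.2, 36.9, 102.8 and 31 CPM in the APPSWE vehicle libraries and at 24.7, 31.1, 16.5, 73.8 and 18.5 CPM in the APPSWE Cmpd60 libraries. The littermate vehicle libraries held 0.625, 0.447, 0.639, 1.71 and 0 CPM. The littermate Cmpd60 libraries held 0, 20.5, 0.438, 21.8 and 20.8 CPM. Rpl29 was thus near 0 in all 5 littermate vehicle libraries and in 2 littermate Cmpd60 libraries, near 21 CPM in the other 3, and above 16 CPM in every APPSWE library. The log2 effect of Cmpd60 was 4.22 (SE 0.95, adjusted p = 0.829) in littermates and -0.67 (SE 0.78, adjusted p = 0.882) in APPSWE mice, and the interaction was -4.89 (SE 1.22). The effect in littermates came from 3 libraries, the other 2 lying within the range of the vehicle group. Between the genotypes given vehicle, Rpl29 was the 1 gene with an adjusted p below 0.05 in edgeR's test (log2 difference 6.26, adjusted p = 0.0208), which is 0.00961% of the genes tested, among 75 genes (0.721%) at a p below 0.01. In limma-voom the interaction of Rpl29 was -3.44 and its p was above 0.05. Processed copies of ribosomal protein genes can share reads with them, so counts on Rpl29 are uncertain in this respect.

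The ribosomal protein genes as a list lay nearer to 0 than Rpl29. Of 77 tested out of 82 listed, 55 had an interaction below 0 and 22 above it, with a median of -0.12, and 3 had a p below 0.01, all lower, against 0.144% of all genes. Besides Rpl29 these were Rps15a, of the small subunit, at -0.50 (SE 0.17), and Rps3a1, likewise of the small subunit, at -0.45 (SE 0.16). In the 15 libraries of higher gene detection Rps15a was at -0.15 (p above 0.05) and Rps3a1 at -0.21 (p above 0.05), and 42 of 76 genes of the list were below 0 with a median of -0.03. Without library s152 alone the median was -0.04. The summed level of the list ran from 8048.8 to 9770.0 CPM in APPSWE vehicle, 6855.3 to 8842.5 CPM in APPSWE Cmpd60, 7929.0 to 9329.5 CPM in littermate vehicle and 6816.6 to 8993.3 CPM in littermate Cmpd60 libraries, with s152 the highest of the last group, and the part of the low gene detection in this result was not tested. The median effect of Cmpd60 on the list was -0.22 in APPSWE mice and -0.12 in littermates. The nuclear genes for oxidative phosphorylation were nearer to 0, with 45 of 74 below it and a median of -0.04. For genes of the mitochondrial genome, 8 of 9 tested were above 0 with a median of 0.14, and 0 had a p below 0.05, against 2.79% of all genes.

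The other named genes of the lower set were Rpf1, Rrp8, Apod, Acadvl, Tmem159 and Snx2. Rpf1, a ribosome biogenesis factor, was at 44.3, 9.83, 7.34, 13.8 and 13.1 CPM in APPSWE vehicle libraries and at 3.70 to 11.1 CPM in APPSWE Cmpd60 libraries. Its highest value stood in library s140, of low gene detection, and its interaction of -1.79 (SE 0.61) was -0.65 (p above 0.05) without libraries s140, s152 and s155. Rrp8, a nucleolar methyltransferase, was at 15.3 to 23.4 CPM in APPSWE vehicle and at 8.29 to 14.5 CPM in APPSWE Cmpd60 libraries, without overlap, and its interaction was -1.31 (SE 0.42). In littermates given Cmpd60, library s152 held 40.8 CPM of Rrp8 and the other 4 held 12.7 to 14.8 CPM. With only the 15 libraries of higher gene detection, its interaction was -0.62 (p below 0.05).

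Apod, a lipocalin that binds lipids and is made by glia, was at 277.0, 256.0, 200.4, 247.5 and 245.4 CPM in APPSWE vehicle libraries and at 224.2, 166.4, 132.2, 189.8 and 174.9 CPM in APPSWE Cmpd60 libraries, the groups overlapping. Its interaction was -0.57 (SE 0.20), and -0.38 (p above 0.05) without the 5 libraries. Acadvl, which starts the mitochondrial oxidation of very long fatty acids, had an interaction of -0.69 (SE 0.23) that came to -0.17 (p above 0.05) without them. Tmem159, a lipid droplet protein, was at -1.54 (SE 0.50) and was below the CPM minimum without them. Snx2, a sorting nexin of endosomes, was at -0.48 (SE 0.16) and at -0.27 (p below 0.05) without them. For these genes the direction held, and the size was smaller where the value could be computed.

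Among the 10 genes called higher, Trank1 (ENSMUSG00000062296) had the smallest p for Cmpd60 in APPSWE mice. It was at 125.9, 146.2, 130.8, 126.1 and 117.9 CPM in APPSWE vehicle libraries and at 146.1, 220.3, 214.2, 191.0 and 209.7 CPM in APPSWE Cmpd60 libraries. The littermate libraries held 162.1 to 220.7 CPM with vehicle and 161.6 to 265.1 CPM with Cmpd60. The APPSWE vehicle libraries were thus the low group, and s139, the lowest Cmpd60 library, lay at the level of the highest vehicle library. The effect of Cmpd60 was 0.60 (SE 0.12, adjusted p = 0.329) in APPSWE mice and 0.07 (SE 0.12, adjusted p = 0.965) in littermates, and the interaction was 0.53 (SE 0.17). With library s139 as vehicle the interaction was 0.59 (p below 0.01), and without the 5 libraries it was 0.43 (p above 0.05).

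Mpeg1, a pore-forming protein of macrophages and microglia, was at 20.2, 13.4, 10.9, 18.5 and 14.8 CPM in APPSWE vehicle libraries and at 29.1, 24.4, 23.4, 24.8 and 23.5 CPM in APPSWE Cmpd60 libraries. In littermates it was at 16.6 to 30.2 CPM with vehicle and at 14.5 to 26.2 CPM with Cmpd60. The APPSWE groups did not overlap for Mpeg1 and the littermate groups did. Its interaction was 0.86 (SE 0.29), and 0.86 (p below 0.01) without the 5 libraries, but 0.61 (p above 0.05) with library s139 as vehicle.

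Limk2, a kinase that phosphorylates cofilin and so steadies actin filaments, was at 121.3, 122.7, 121.6, 121.7 and 121.8 CPM in APPSWE Cmpd60 libraries and at 105.9, 114.6, 112.8, 115.5 and 89.0 CPM in APPSWE vehicle libraries, without overlap. In littermates it was at 112.5 to 132.4 CPM with vehicle and at 89.9 to 118.8 CPM with Cmpd60, groups that overlapped. Its interaction was 0.37 (SE 0.13), and 0.20 (p above 0.05) without the 5 libraries. Limk2 was the 1 gene of 47 tested in the actin filament list with a p below 0.01, against 0.0961% of all genes called higher. The list as a whole had 21 members above 0 and 26 below, with a median of -0.02.

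Abca3, a lipid transporter, was at 69.1, 117.5, 92.4, 103.6 and 92.4 CPM in APPSWE vehicle libraries and at 130.5, 142.4, 122.1, 114.5 and 122.4 CPM in APPSWE Cmpd60 libraries, overlapping by a single pair of libraries. Its interaction was 0.64 (SE 0.20), with the smallest p of the genes called higher. It was 0.37 (p below 0.05) without the 5 libraries, and 0.25 (p above 0.05) with library s139 also as vehicle. Rgl2, an exchange factor for Ral GTPases, was at 5.92 to 22.4 CPM in APPSWE vehicle and 20.0 to 31.2 CPM in APPSWE Cmpd60 libraries, while in littermates all 5 vehicle libraries, at 20.5 to 24.6 CPM, lay above all 5 Cmpd60 libraries, at 4.90 to 20.2 CPM. The interaction of Rgl2 was 1.25 (SE 0.43) and 0.88 (p below 0.01) without the 5 libraries. Trmu, which modifies mitochondrial transfer RNA, was at 6.91 to 9.42 CPM in APPSWE vehicle and at 11.2 to 20.3 CPM in APPSWE Cmpd60 libraries, without overlap. Its interaction of 1.19 (SE 0.39) came to 0.68 (p below 0.05) without the 5 libraries and to 0.36 (p above 0.05) with library s139 also as vehicle.

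The remaining genes of the higher set were Dpysl4, Sptbn4, Gas2l1 and Neto1. Dpysl4, of the collapsin response mediator family, had an interaction of 0.51 (SE 0.18) and of 0.60 (p below 0.01) without the 5 libraries. Sptbn4, the spectrin of the axon initial segment, was at 0.39 (SE 0.14) and at 0.46 (p below 0.01) without them, but at 0.27 (p above 0.05) with library s139 as vehicle, whether or not the 5 libraries entered. Gas2l1, which links actin to microtubules, was at 0.75 (SE 0.25) and at 0.20 (p above 0.05) without them. Neto1, an auxiliary subunit of kainate receptors, was at 0.71 (SE 0.25) and at 0.17 (p above 0.05) without them. For Gas2l1 and Neto1 the highest of the 20 values stood in library s155, at 97.0 and 120.2 CPM.

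Of the 25 genes, Rpl29, Arc, Rgl2, Dpysl4, Mpeg1, Sptbn4 and Morf4l1, a chromatin reader that can join Sin3 complexes, also had a p below 0.01 without the 5 libraries of low gene detection. Morf4l1 was named after its values were seen, with an interaction of -0.39 (p below 0.01) in all 20 libraries and -0.46 (p below 0.01) in the 15. With library s139 as vehicle in all 20 libraries, Trank1 was the 1 gene of the 10 called higher that kept a p below 0.01.

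**Figure D4:**
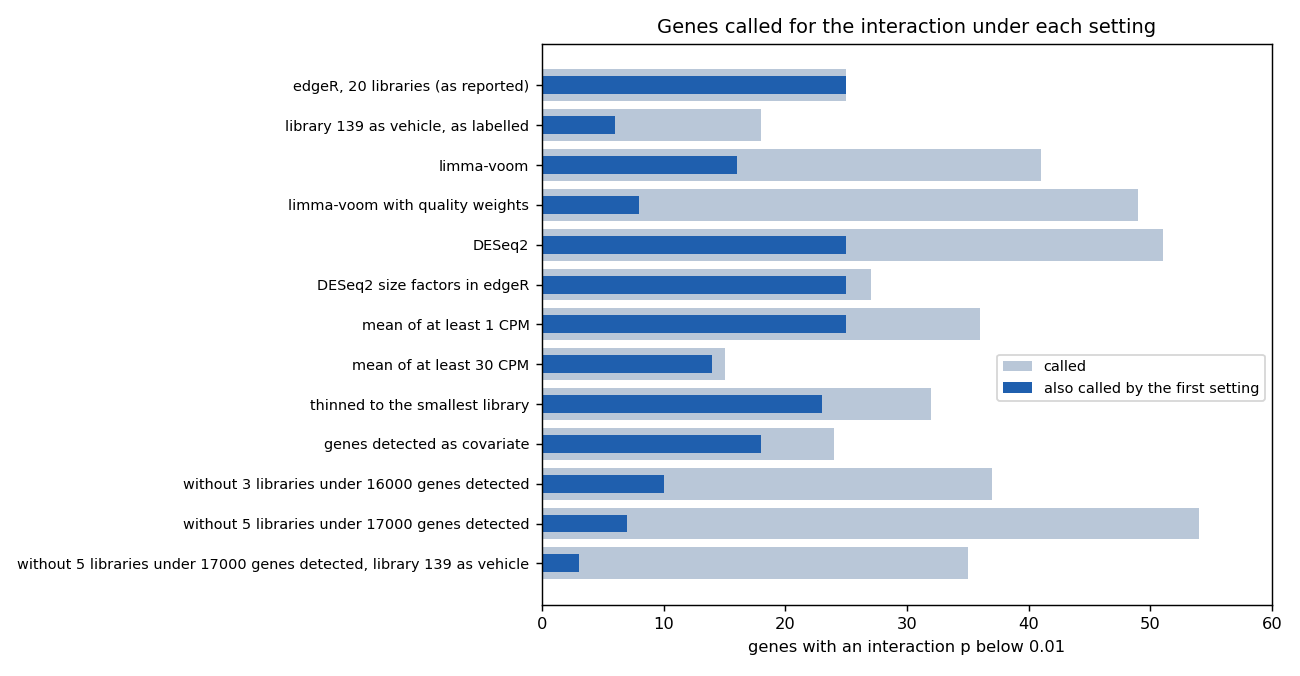
Number of genes with an interaction p below 0.01 under each setting (light bars) and the number of those also called in the edgeR fit of 20 libraries (dark bars). For the settings drawn, the light bars run from 15 to 54 genes, and the dark bars fall to 3 to 10 genes when the libraries of low gene detection are left out. The number of genes tested differs between settings, and the 15 are of 6663 genes with a mean of at least 30 CPM.

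The cell type lists were examined next. In bulk tissue, fewer cells of a type and less RNA per cell cannot be told apart. Choroid plexus markers, of the epithelium that makes cerebrospinal fluid, had the lowest median of the lists with more than 1 gene tested. All 7 tested members of 17 listed were below 0, with a median of -0.57, and their median Cmpd60 effect was -0.75 in APPSWE mice and 0.07 in littermates. Ttr, the thyroxine carrier transthyretin, named after its values were seen, was at 825.8, 342.6, 863.0, 569.2 and 1438.5 CPM in APPSWE vehicle libraries and at 497.1, 514.6, 348.8, 312.7 and 296.7 CPM in APPSWE Cmpd60 libraries. The littermate libraries held 473.2 to 1096.3 CPM with vehicle and 476.7 to 927.0 CPM with Cmpd60. The groups overlapped in both genotypes, and the highest value, in library s146, was of a library of low gene detection.

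The interaction of Ttr was -0.94 (SE 0.39), that of the phospholipase Enpp2 -0.57 (SE 0.22) and that of the bicarbonate transporter Slc4a5 -1.69 (SE 0.66). Those were the 3 members with a p below 0.05, against 1.52% of all genes called lower, and 0 had a p below 0.01. Without library s146 alone, Ttr was at -0.63 (p above 0.05), Slc4a5 at -1.02 (p above 0.05) and Enpp2 at -0.44 (p below 0.05). In the 15 libraries of higher gene detection the median was -0.25 over 6 genes, all below 0, Ttr was at -0.44 (p above 0.05) and Enpp2 at -0.40 (p above 0.05). The summed level of all 17 listed markers ran from 911.4 to 2604.8 CPM in APPSWE vehicle and from 880.3 to 1199.2 CPM in APPSWE Cmpd60 libraries, and from 1088.1 to 2079.7 CPM and 1057.0 to 1841.8 CPM in littermates with vehicle and Cmpd60. How much of this tissue each dissected brain kept was not given in the sources used here, and its part in the result was not tested.

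Markers of striatal medium spiny neurons, the projection neurons of the basal ganglia, were on the other side. Of 17 tested out of 18 listed, 16 were above 0, with a median of 0.30, and the median Cmpd60 effect was 0.14 in APPSWE mice and -0.16 in littermates. Rgs9, a regulator of G protein signalling in these neurons, was at 39.7, 44.9, 41.4, 24.3 and 33.2 CPM in APPSWE vehicle and at 42.4, 33.7, 50.6, 47.1 and 42.4 CPM in APPSWE Cmpd60 libraries. In littermates Rgs9 was at 39.3 to 63.2 CPM with vehicle and at 32.9 to 47.2 CPM with Cmpd60, and the groups overlapped in both genotypes. Its interaction was 0.63 (SE 0.24). Syndig1l, named after its values were seen, was at 0.69 (SE 0.29). In all, 3 members had a p below 0.05, these among them, against 1.27% of all genes called higher, and 0 had a p below 0.01. In the 15 libraries of higher detection, 16 of 17 were above 0, with a median of 0.25 and 2 at a p below 0.05. The 1.27% is not the background of these 2, as more of all genes had such a p in the 15 libraries. Nothing is therefore read from these 2. The summed level of the 18 markers was 1790.6 to 2287.4 CPM in APPSWE vehicle and 2030.5 to 2384.1 CPM in APPSWE Cmpd60 libraries, which overlapped.

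Microglia markers also lay above 0, in 11 of 11 tested out of 18 listed, with a median of 0.25. A p below 0.05 was found for 1 member, against 1.27% of all genes called higher. This median was 0.16 without library s152 and 0.41 without library s157, and without the 5 libraries it was 0.18, with 10 of 11 above 0 and 0 at a p below 0.05. The 1 member called in the 20 libraries was Laptm5, a lysosomal membrane protein of blood cells and microglia, at 0.72 (SE 0.35), and at 0.12 (p above 0.05) without the 5 libraries. The summed level of all 18 markers was 351.3 to 439.4 CPM in APPSWE vehicle and 402.9 to 453.1 CPM in APPSWE Cmpd60 libraries, and 410.7 to 517.2 CPM and 402.6 to 459.2 CPM in littermates with vehicle and Cmpd60. Oligodendrocyte markers had 12 of 16 below 0 and a median of -0.13, and 1 had a p below 0.05, against 1.52% of all genes called lower. Markers of cortical excitatory neurons, interneurons, hippocampus, thalamus, astrocytes, endothelial and mural cells, ependymal cilia and cerebellar neurons had medians from -0.01 to 0.07. In the 15 libraries of higher gene detection, however, the cerebellar median was 0.39 with 13 of 14 above 0, the cortical median was -0.18 with 13 of 15 below 0, and the thalamic median, 0.04 in all 20 libraries, was 0.18 with 11 of 11 above 0 and 2 at a p below 0.05. For the 2 thalamic genes the 1.27% is not the background either, as it belongs to the fit of all 20 libraries, and nothing is read from them. The cerebellar markers summed to between 837.8 and 2159.0 CPM over the 20 libraries. Olfactory bulb markers had 4 of 5 above 0 with a median of 0.39, oligodendrocyte precursor markers 5 of 7 with 0.10, hypothalamus and pituitary markers 4 of 8 with 0.11, and markers of meninges and fibroblasts 3 of 8 with -0.09. The 1 blood marker tested was at -1.14. Leaving out single libraries moved several of these medians. The olfactory bulb median was 0.14 without library s152 and 0.66 without library s158. The median of hypothalamus and pituitary was -0.11 without library s139 and 0.47 without library s157, and with s139 as vehicle it was -0.17, or -0.60 also without the 5 libraries. That of meninges and fibroblasts was -0.21 without library s152 and 0.11 without library s146, and that of oligodendrocyte precursors 0.04 without library s157 and 0.22 without library s156. The oligodendrocyte median was -0.08 without library s151.

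A pituitary transcript stood high in a single library. Gh, growth hormone, was at 332.0 CPM in library s157 and at 0 to 58.3 CPM in the other 19, and its interaction of -7.13 (p below 0.05) was -1.77 (p above 0.05) without library s157. Blood markers summed to 140.3 to 477.1 CPM in littermate Cmpd60 and to 53.0 to 127.5 CPM in APPSWE Cmpd60 libraries, without overlap. With vehicle they summed to 32.6 to 331.5 CPM in littermates and to 76.1 to 194.5 CPM in APPSWE mice. The part of blood left in the tissue was not tested.

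**Figure D5:**
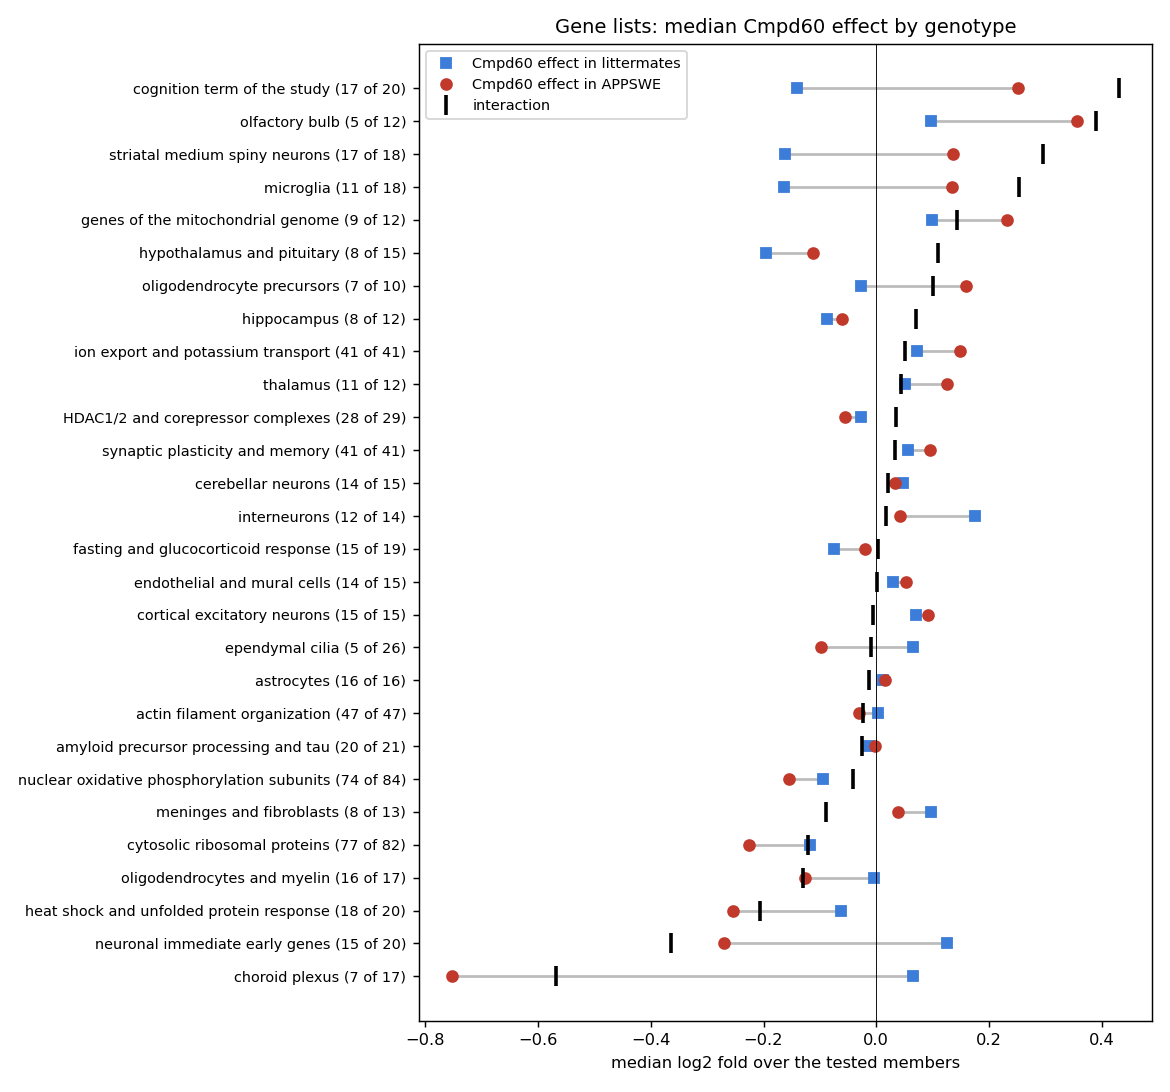
Median log2 effect of Cmpd60 over the tested members of each gene list, in littermates (squares) and in APPSWE mice (circles), and the median interaction (vertical ticks), with the number tested of the number listed, for lists with at least 3 genes tested. Of these lists, choroid plexus markers have the lowest median interaction, at -0.57, followed by immediate early genes at -0.36, and the cognition term, which the study chose on this contrast, has the highest, at 0.43.

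Genes of heat shock and of the unfolded protein response, which code for chaperones and their regulators, had 17 of 18 tested members below 0, with a median of -0.21. Their median Cmpd60 effect was -0.25 in APPSWE mice and -0.06 in littermates. Ddit4, a stress-induced inhibitor of mTORC1, was the 1 member with a p below 0.05, at -0.66 (SE 0.30), against 1.52% of all genes called lower. Hspa1b, an inducible chaperone, was at -1.33 (SE 0.68, p above 0.05). Without library s145 of the APPSWE vehicle group, whose summed level of 10113.1 CPM was the highest of all 20, the median was -0.06. Without the 5 libraries of low gene detection it was -0.27, with 18 of 18 members below 0.

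For the pathways that bear on the model and on the drug target, the interaction centred on 0. Of 20 tested genes of amyloid precursor processing and tau, 7 were above and 13 below 0, with a median of -0.03, and 0 had a p below 0.05, against 2.79% of all genes. Of 28 genes of HDAC1/2 and their corepressor complexes, 16 were above and 12 below, with a median of 0.04. With library s139 as vehicle this median was -0.04, and without the 5 libraries it was -0.06. Rbbp4, a histone-binding subunit shared by several of these complexes, was the 1 member with a p below 0.05, against 1.52% of all genes called lower. Its interaction was -0.37 (SE 0.15), and -0.15 (p above 0.05) without the 5 libraries.

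Hdac1 itself was at 4.83 to 20.4 CPM in APPSWE vehicle, 18.3 to 23.1 CPM in APPSWE Cmpd60, 10.4 to 28.1 CPM in littermate vehicle and 12.5 to 32.5 CPM in littermate Cmpd60 libraries, with an interaction of 0.32 and a 95% interval from -0.57 to 1.20. Hdac2 was at 50.2 to 80.6 CPM over the 20 libraries, with an interaction of -0.05 and a 95% interval from -0.39 to 0.29. The groups of both genes overlapped in both genotypes. Neither value held its sign under all settings.

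Genes of synaptic plasticity and memory had 25 of 41 above 0 and a median of 0.03. A p below 0.05 was found for 2 of them, against 1.27% of all genes called higher. They were Gria1, a subunit of AMPA receptors, at 0.36, and Shank3, a scaffold of excitatory synapses, at 0.23. Genes of ion export and potassium transport had 25 of 41 above 0 and a median of 0.05. The potassium channel Kcnd3 at 0.34 and the sodium-calcium exchanger Slc8a2 at 0.28 were the 2 with a p below 0.05, against the same 1.27%. Genes of the response to fasting and glucocorticoids had 8 of 15 above 0 and a median of 0.00.

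The study took 20 genes of a cognition term from the genes it found higher in the interaction of these same libraries. Their direction and their calls in the interaction were therefore fixed by that choice, and the values below only describe them. Of the 17 tested, all had an interaction above 0, with a median of 0.43, a median Cmpd60 effect of 0.25 in APPSWE mice and of -0.14 in littermates. Neto1 was the 1 gene with a p below 0.01, and 8 had a p below 0.05, where 1.27% of all genes were called higher, and nothing is read from this count. Besides Neto1, Gria1 and Shank3, these included Shisa7 and Prrt1, partners of synaptic receptors, Jph4, a junctophilin, and Kmt2b, a histone methyltransferase, all 4 named after their values were seen. Their interactions ran from 0.28 in Jph4 to 0.44 in Kmt2b. Without the 5 libraries of low gene detection the median was 0.16, 16 of 17 were above 0 and 1 had a p below 0.05. In limma-voom, the method by which the study chose them, 14 of 17 had a p below 0.05 in all 20 libraries. Among all 10405 genes tested, 456 did so in limma-voom. The study chose its genes at a p below 0.01, so these counts are at a looser threshold. Library s155, of low gene detection, held the highest littermate vehicle values of Neto1 and Kmt2b.

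Of the members of this term that the study named, Cx3cr1, the fractalkine receptor of microglia, was at 32.2 to 41.6 CPM in APPSWE vehicle, 34.5 to 49.4 CPM in APPSWE Cmpd60, 34.5 to 52.0 CPM in littermate vehicle and 26.5 to 43.5 CPM in littermate Cmpd60 libraries. Its interaction was 0.42 (SE 0.21, p above 0.05), and 0.19 (p above 0.05) without the 5 libraries. Cyfip1, a subunit of the actin-regulating WAVE complex, was at 0.37 (SE 0.19, p above 0.05) and at 0.07 (p above 0.05) without them. Ncam1, a neural cell adhesion molecule, was at 0.21 (SE 0.11, p above 0.05) and at 0.09 (p above 0.05) without them. Pla2g6, a calcium-independent phospholipase, was at 1.26 CPM in library s152 and at 41.9 CPM in library s155, its lowest and highest values, both of low gene detection. Its interaction of 0.90 (SE 0.67, p above 0.05) was -0.08 (p above 0.05) without the 5 libraries. In limma-voom, the method of the study, Cx3cr1 was at 0.44, Cyfip1 at 0.45 and Pla2g6 at 1.88, each with a p below 0.05 but above 0.01. Ncam1 was at 0.22 there (p above 0.05). None of the 4 thus had a p below 0.01, the threshold of the study, in this fit of genes with a mean of at least 10 CPM. The study chose these genes with that method on these libraries, so the limma-voom p-values do not test them anew. All 4 genes overlapped between Cmpd60 and vehicle in both genotypes.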

How the data were processed

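Brain mRNA of 20 mice was sequenced from stranded, oligo-dT selected libraries. Per the labels and the study's methods, the authors deposited counts per gene and library, made with Trimmomatic 0.32, HISAT2 2.1.0 and HTSeq 0.11.0; the genome build is not given in the sources used here. The 5 summary lines of each file (15.4 to 19.5% of counts) were left out, as were genes with a mean under 10 CPM. Depth was 25052335 to 55871402 counts on genes. Counts were TMM-normalised and fitted with edgeR 4.0.16 (R 4.3.3), 1 term per group, with quasi-likelihood tests and Benjamini-Hochberg adjustment over 10405 genes; the interaction was a contrast of the 4 terms. Intervals are 95%. Genes were matched to symbols by identifier (10235 of those tested).

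Library s139 is vehicle in its labels and compound in the heading of the study's table. Both placements and its omission were tried, with limma 3.58.1 (voom, with and without quality weights), DESeq2 1.42.0, other filters, thinning, a detected-genes covariate, and each library left out. Fits without the libraries of low gene detection were added after seeing the data. The fit was tested on simulated data without libraries of low gene detection (64 of 100 genes recovered at log2 size 1).

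Genes named are, per direction, the 10 with the smallest interaction p and the 3 largest with a p below 0.01 (predicted names left out), the study's genes, and up to 2 examples per list; others are said to be named after their values were seen. Some genes that the rule selects are not reported here. Members and lists were chosen with earlier results of these data known. Nothing states whether libraries of a group came from separate litters, so p-values measure the spread between these libraries.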

Additional observations from a re-analysis of the deposited data

Results flagged for a closer look

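Genes and library measures were each examined in the 4 groups of 5 libraries, 236 sets of values in all. In these, 31 single values stood apart from the other 4 of their group by Dixon's gap ratio. At 1 in 20, 11.8 would do so by chance. The sets share libraries and many genes were chosen on these data, so 11.8 is only a rough guide. Of the 31 values, 18 were in libraries with fewer than 17000 genes detected, whose part in the values was not tested. All are given in CPM unless stated.

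Library s152 (littermate Cmpd60) held Cx3cr1 at 26.5 (others 39.6 to 43.5), Cyfip1 at 65.6 (87.4 to 95.4), Rgl2 at 4.9 (17.1 to 20.2), Rpf1 at 21.1 (10.8 to 13.3), Rrp8 at 40.8 (12.7 to 14.8), Snx2 at 95.4 (61.4 to 69.5) and Tmem159 at 19.3 (9.47 to 11.3). Library s155 (littermate vehicle) held Cyfip1 at 118.2 (85.5 to 93.3), Gas2l1 at 97.0 (49.0 to 58.8), Kmt2b at 87.6 (66.4 to 71.2), Neto1 at 120.2 (61.5 to 74.8) and Ramp3 at 24.2 (15.2 to 17.1). Library s140 (APPSWE vehicle) held Ddit4 at 54.7 (31.3 to 37.9), Kcnd3 at 122.6 (102.3 to 105.4) and Rpf1 at 44.3 (7.34 to 13.8). Library s146 of the same group held Slc4a5 at 44.6 (8.43 to 14.1), and s141 (APPSWE Cmpd60) held Rps15a at 79.9 (103.7 to 110.1).

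Among libraries of higher gene detection, Arc was at 122.2 in s157 (littermate Cmpd60, others 76.6 to 89.2) and at 135.2 in s151 (littermate vehicle, others 60.2 to 73.1). Gh was at 332.0 in s157 (others 0 to 6.16) and at 1.81 in s139 (others 0 to 0.294), Mpeg1 at 29.1 in s139 (23.4 to 24.8) and Prnp at 697.6 in s157 (634.1 to 651.0). Rpl29 was at 73.8 in s147 (16.5 to 31.1), Rps9 at 176.1 in s154 (141.3 to 147.1), Shank3 at 348.7 in s148 (276.3 to 288.9), Snx2 at 52.4 in s150 (61.2 to 64.4) and Trank1 at 265.1 in s153 (161.6 to 187.3). Counts on genes were 55844566 in s143, 55871402 in s140 and 37844133 in s150, against at most 27772286, 28410333 and 27519596 in the rest of each group.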

How the results depend on the processing

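No paired analysis was possible because the groups share no replicate numbers. The number of genes with an adjusted interaction p below 0.05 was 0 in every setting but limma-voom with quality weights, which gave 1. This was Hjurp, named after its values were seen, at 2.22 (adjusted p = 0.0121 in that fit). In edgeR its interaction was 1.27 (p below 0.05) in all 20 libraries and 1.53 (p below 0.01) without the 5 libraries. At a p below 0.01 the interaction gave 25 of 10405 genes (0.24%, 10 higher) in the edgeR fit of 20 libraries. It gave 41 by limma-voom (26 higher), 49 with quality weights (28 higher) and 51 by DESeq2 (24 higher). Without the 5 libraries of low gene detection it gave 54 (32 higher). Over all genes of the study's filter it gave 253 of 23273 (1.09%, 175 higher). At a mean of at least 30 CPM it gave 15 of 6663 (0.225%). Thinning gave 32 (18 higher), the covariate 24 (13 higher), and leaving out s140, s152 and s155 gave 37 (19 higher). Cmpd60 in APPSWE mice gave 176 genes (1.69%) in the edgeR fit of 20 libraries, 336 by limma-voom and 385 with quality weights. Over all 23273 genes of the study's filter it gave 531 (2.28%). Without 3 libraries, without 5, and without 5 with s139 as vehicle, it gave 349, 322 and 293. In littermates Cmpd60 gave 44 genes (0.423%) in the edgeR fit of 20 libraries, 122 with quality weights, 73 by DESeq2 and 69 with the covariate. Over all 23273 genes it gave 93 (0.4%). Without 3 libraries it gave 25, and without 5 with s139 as vehicle 68. Leaving out each library gave 12 (s148) to 42 (s144) interaction genes, 101 (s148) to 264 (s142) in APPSWE mice and 20 (s152) to 113 (s157) in littermates, with 0 adjusted interactions throughout.

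Outside the single-library omissions, 710 values of named genes kept their direction and 8 turned direction. These were Hdac2 (0.0657 with s139 as vehicle, 0.1138 also without 5 libraries), Hdac1 (-0.0238 with quality weights, -0.0326 without 5 and s139 as vehicle), Prnp (0.015 with quality weights, 0.0083 without 5), Pla2g6 (-0.0768 without 5) and Kmt2b (-0.071 without 5 and s139 as vehicle). Single omissions gave App -0.0546 to 0.0108, Prnp -0.0625 to 0.0187 and Hdac2 -0.1235 to 0.0348. The cause was not tested in any of these.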
